A study of Mus musculus with 4 samples.

Results

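Trim33 binding was examined at 10 genes that encode TGF-beta ligands and their receptors, in mouse T helper 17 (Th17) cells. The genes are the ligand genes Tgfb1, Tgfb2 and Tgfb3, the type I receptor genes Tgfbr1, Acvr1 and Acvr1b, the type II receptor genes Tgfbr2, Acvr2a and Bmpr2, and Tgfbr3, whose product betaglycan is a co-receptor and neither a type I nor a type II receptor. They were chosen by gene name, from 21883 protein-coding genes. A peak of the deposited list was assigned to a gene when its summit, the position of highest signal, lay in the RefSeq gene body or within 10 kb of it. By that rule 42 of 27050 peaks belonged to 9 of the 10 genes.

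Naive CD4+ T cells from spleen and lymph nodes of C57BL/6 mice were turned into Th17 cells in culture, on plate-bound antibodies to CD3 and CD28 with IL-6, TGF-beta and antibodies that neutralise IL-4 and IFN-gamma. Chromatin immunoprecipitation and sequencing (ChIP-seq) was done with an antibody to Trim33 in 2 libraries, and 2 libraries of input DNA came from the same kind of cells. Every library therefore came from cells given TGF-beta, and the labels do not state the age or sex of the mice. The deposited list was called on the merged replicates and holds 1 value per peak, so there is no spread between cultures, the depth is unknown, and differences in height between peaks were not tested. The list holds no RNA values, so the cell type could not be checked by expression. Of the Th17 marker loci Il17a, Il17f, Il23r, Ccr6 and Rora 5 of 5 held a summit, against 1 of 3 myeloid loci (Itgam, with none at Csf1r and Cebpa) and 53.9% of all protein-coding loci.

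TGF-beta ligands are secreted in a latent form, and once active they bind a type II receptor kinase, which recruits and phosphorylates a type I receptor kinase. The type I receptor then phosphorylates SMAD proteins, which enter the nucleus with Smad4. In CD4 T cells TGF-beta favours regulatory T cells on its own and Th17 cells together with IL-6. Trim33, also called TIF1-gamma, is a nuclear ubiquitin ligase known to bind receptor-activated SMADs and modified histone H3.

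Of the 10 genes, 9 (90.0%) had a summit in their locus, whereas 53.9% of all protein-coding genes did. These genes are longer than most, from 18076 to 183063 bp against a median of 17200 bp, and 66.3% of the 9518 protein-coding genes within that range of lengths had a locus summit. Counting gene bodies alone, 5 of 10 had a summit against 33.0% of all genes, because the summits of Tgfbr1, Acvr2a and Bmpr2 lay just before the start and those of Tgfb3 farther out. In stricter peak sets the locus count was 8 with peaks at or above the median fold and 6 with peaks at or above the median −log10 q, each against 35.8% of all genes. At 8 of 10 members a summit lay no more than 1000 bp from an end of the gene, compared with 33.4% of all protein-coding genes and 41.9% of those of like length. This count was 5 against 17.2% of all genes in the stricter set by fold, and 4 against 17.6% in that by −log10 q. Strand and start site were known for 8 members from the RefSeq promoter table, and 7 of these (87.5%) had a summit within 1000 bp of an annotated start. With the stricter sets this was 4 against 17.8% and 3 against 18.3%. In the full list the share was 34.8% over the 17491 protein-coding genes with an annotated start and 46.1% over those of like length. A peak of 10-fold enrichment or more was present at 2 members, Acvr1b and Tgfbr3, against 10.1% of all genes and 13.4% of those of like length. The shares for gene bodies alone and for the stricter sets are over genes of all lengths, and were not taken at like length. All these shares are a description, since the genes were chosen with earlier results of the same list known.

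The promoter sequences below belong to the 5 genes whose summit fell inside the 300 bases from 250 before to 50 after the annotated start. They show the DNA under the start-site peaks. Sequences are from RefSeq on build GRCm38.p6, read 5′ to 3′ on the strand of the gene, and the capitals mark the summit base with up to 25 bases on each side.
Tgfb1 (chr7:25686752-25687051, plus strand): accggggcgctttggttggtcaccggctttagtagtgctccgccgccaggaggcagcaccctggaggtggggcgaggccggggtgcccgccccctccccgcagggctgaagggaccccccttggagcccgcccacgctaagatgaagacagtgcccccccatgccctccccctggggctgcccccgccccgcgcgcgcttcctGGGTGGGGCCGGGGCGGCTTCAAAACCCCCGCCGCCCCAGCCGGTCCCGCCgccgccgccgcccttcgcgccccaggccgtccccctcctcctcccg
Tgfbr1 (chr4:47352972-47353271, plus strand): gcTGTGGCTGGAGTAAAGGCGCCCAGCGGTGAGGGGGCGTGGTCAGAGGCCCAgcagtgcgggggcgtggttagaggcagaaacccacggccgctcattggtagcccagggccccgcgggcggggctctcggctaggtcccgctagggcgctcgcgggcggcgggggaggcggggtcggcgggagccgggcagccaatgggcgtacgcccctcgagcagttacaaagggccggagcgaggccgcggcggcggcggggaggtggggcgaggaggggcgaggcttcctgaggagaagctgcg
Acvr1 (chr2:58566779-58567078, minus strand): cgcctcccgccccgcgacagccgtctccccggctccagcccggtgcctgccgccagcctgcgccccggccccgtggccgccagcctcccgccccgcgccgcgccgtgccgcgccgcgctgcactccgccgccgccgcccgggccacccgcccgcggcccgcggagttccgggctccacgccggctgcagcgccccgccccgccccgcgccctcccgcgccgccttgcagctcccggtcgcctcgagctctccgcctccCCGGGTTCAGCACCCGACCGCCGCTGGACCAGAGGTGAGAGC
Acvr1b (chr15:101173822-101174121, plus strand): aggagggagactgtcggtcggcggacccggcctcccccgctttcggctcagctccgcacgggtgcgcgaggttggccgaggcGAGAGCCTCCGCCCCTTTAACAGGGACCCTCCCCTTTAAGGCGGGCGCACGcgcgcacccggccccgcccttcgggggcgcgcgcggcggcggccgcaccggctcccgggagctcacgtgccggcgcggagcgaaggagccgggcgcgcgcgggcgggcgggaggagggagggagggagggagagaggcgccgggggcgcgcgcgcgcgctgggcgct
Acvr2a (chr2:48813859-48814158, plus strand): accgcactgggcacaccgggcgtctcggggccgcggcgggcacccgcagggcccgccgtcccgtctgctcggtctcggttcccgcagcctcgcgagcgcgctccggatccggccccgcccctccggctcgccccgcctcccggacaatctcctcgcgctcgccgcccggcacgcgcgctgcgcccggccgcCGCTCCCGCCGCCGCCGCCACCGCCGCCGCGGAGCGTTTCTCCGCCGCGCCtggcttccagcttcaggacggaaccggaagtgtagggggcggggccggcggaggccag

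All 5 windows were rich in G and C, from 74.7% at Tgfbr1 to 83.7% at Acvr1, and held from 30 (Tgfb1) to 54 (Acvr2a) CpG dinucleotides. Over the 4842 windows of protein-coding genes that held a summit the median was 64.3% GC (quartiles 58.7 and 70.0) with 25 CpG, and over the 16420 windows without a summit it was 53.7% with 8 CpG. The windows of Tgfb2, Tgfbr2 and Bmpr2 and the second window of Tgfbr1, which held no summit, had 52.0% to 59.3% GC and 3 to 23 CpG. The 5 windows printed above were thus above the upper quartile of GC of occupied windows, and the other 4 were below their median.

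Short motifs were looked for on both strands of these windows. GGCGC, the core of a GC-rich SMAD site, occurred in 5 of 5 windows, and in 77.5% of all occupied windows and 46.7% of all windows. The nearest match lay 7 bases from the summit at Tgfbr1 and 66 bases from it at Acvr1. The SMAD box CAGAC occurred in 1 of the 5, at Acvr2a and 152 bases from the summit, against 44.9% of occupied windows and 48.4% of all. CGGAAG, an ETS core, was found in the Acvr2a window alone among the 5, 52.5 bases from the summit measured from the middle of the match, and in 42.0% of occupied windows. The AP-1 motif TGANTCA was in none of the 5, and in 4.71% of occupied windows. Neither the RUNX motif TGTGGT nor the ROR motif AGGTCA was in any of the 5, and they were in 11% and 10.3% of occupied windows. None of the 6 motifs contains another on either strand, although GGCGC can overlap its own reverse complement. Of the member windows without a summit, that of Bmpr2 held GGCGC. Those of Tgfb2 and Tgfbr2 and the second of Tgfbr1 held CAGAC and no GGCGC. The shares were not taken at like GC content, although the 5 windows were richer in GC than most occupied windows. A match describes letters only and is not a binding site.

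Among the ligand genes, Tgfb1 carried nearly all of the summits. Tgfb1, the main TGF-beta gene of lymphocytes, lies on chromosome 7 from 25687002 to 25705077 (mm10) and had 7 summits, or 18.4 per 100 kb of locus. Only 0.452% of protein-coding genes had a higher density, and the median gene had 1.11. The start-site peak at 25686766 to 25687310 had 5.17-fold enrichment over background, as the authors' peak caller gave it, with its summit 22 bp before the start, and 3.99% of all peaks were wider than its 545 bp. Inside the gene, enrichment was 4.34-fold at 2380 bp after the start and 6.82-fold at 15495 bp after it. The highest peak of the locus, 7.14-fold, lay 775 bp past the 3′ end, and another of 4.46-fold lay 2640 bp past it.

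The remaining summits of the Tgfb1 locus lay upstream, towards B9d2, a gene for a protein of primary cilia. The peak 3256 bp before the Tgfb1 start had 4.62-fold enrichment and its summit was inside B9d2. The peak 6401 bp before the start had 2.76-fold enrichment, the lowest of all 42, and its summit was 179 bp from the lower end of B9d2. All 7 enrichments were below the upper quartile of the list, 7.76, and 2 of them were above its median, 6.00.

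Tgfb2 and Tgfb3 differed from Tgfb1 in having no summit in or at the gene. Tgfb2, on chromosome 1 from 186622787 to 186709697, had none in its locus. The nearest summit was 39691 bp above its upper end, where the nearest gene end was that of Rrp15. Tgfb3, on chromosome 12 from 86056743 to 86079041, had summits of 3.92-fold and 4.69-fold enrichment 9833 and 9178 bp below its lower end. Both were inside Ttll5, a gene for a tubulin-modifying enzyme, and nearer to the end of Ttll5 than to Tgfb3. Another summit of 9.34-fold lay 10446 bp below Tgfb3, just beyond the 10 kb limit. The summits within 1000 bp inside that limit were these and 2 at Tgfbr2, 9967 bp away with 6.40-fold and 9773 bp away with 7.14-fold.

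**Figure D1:**
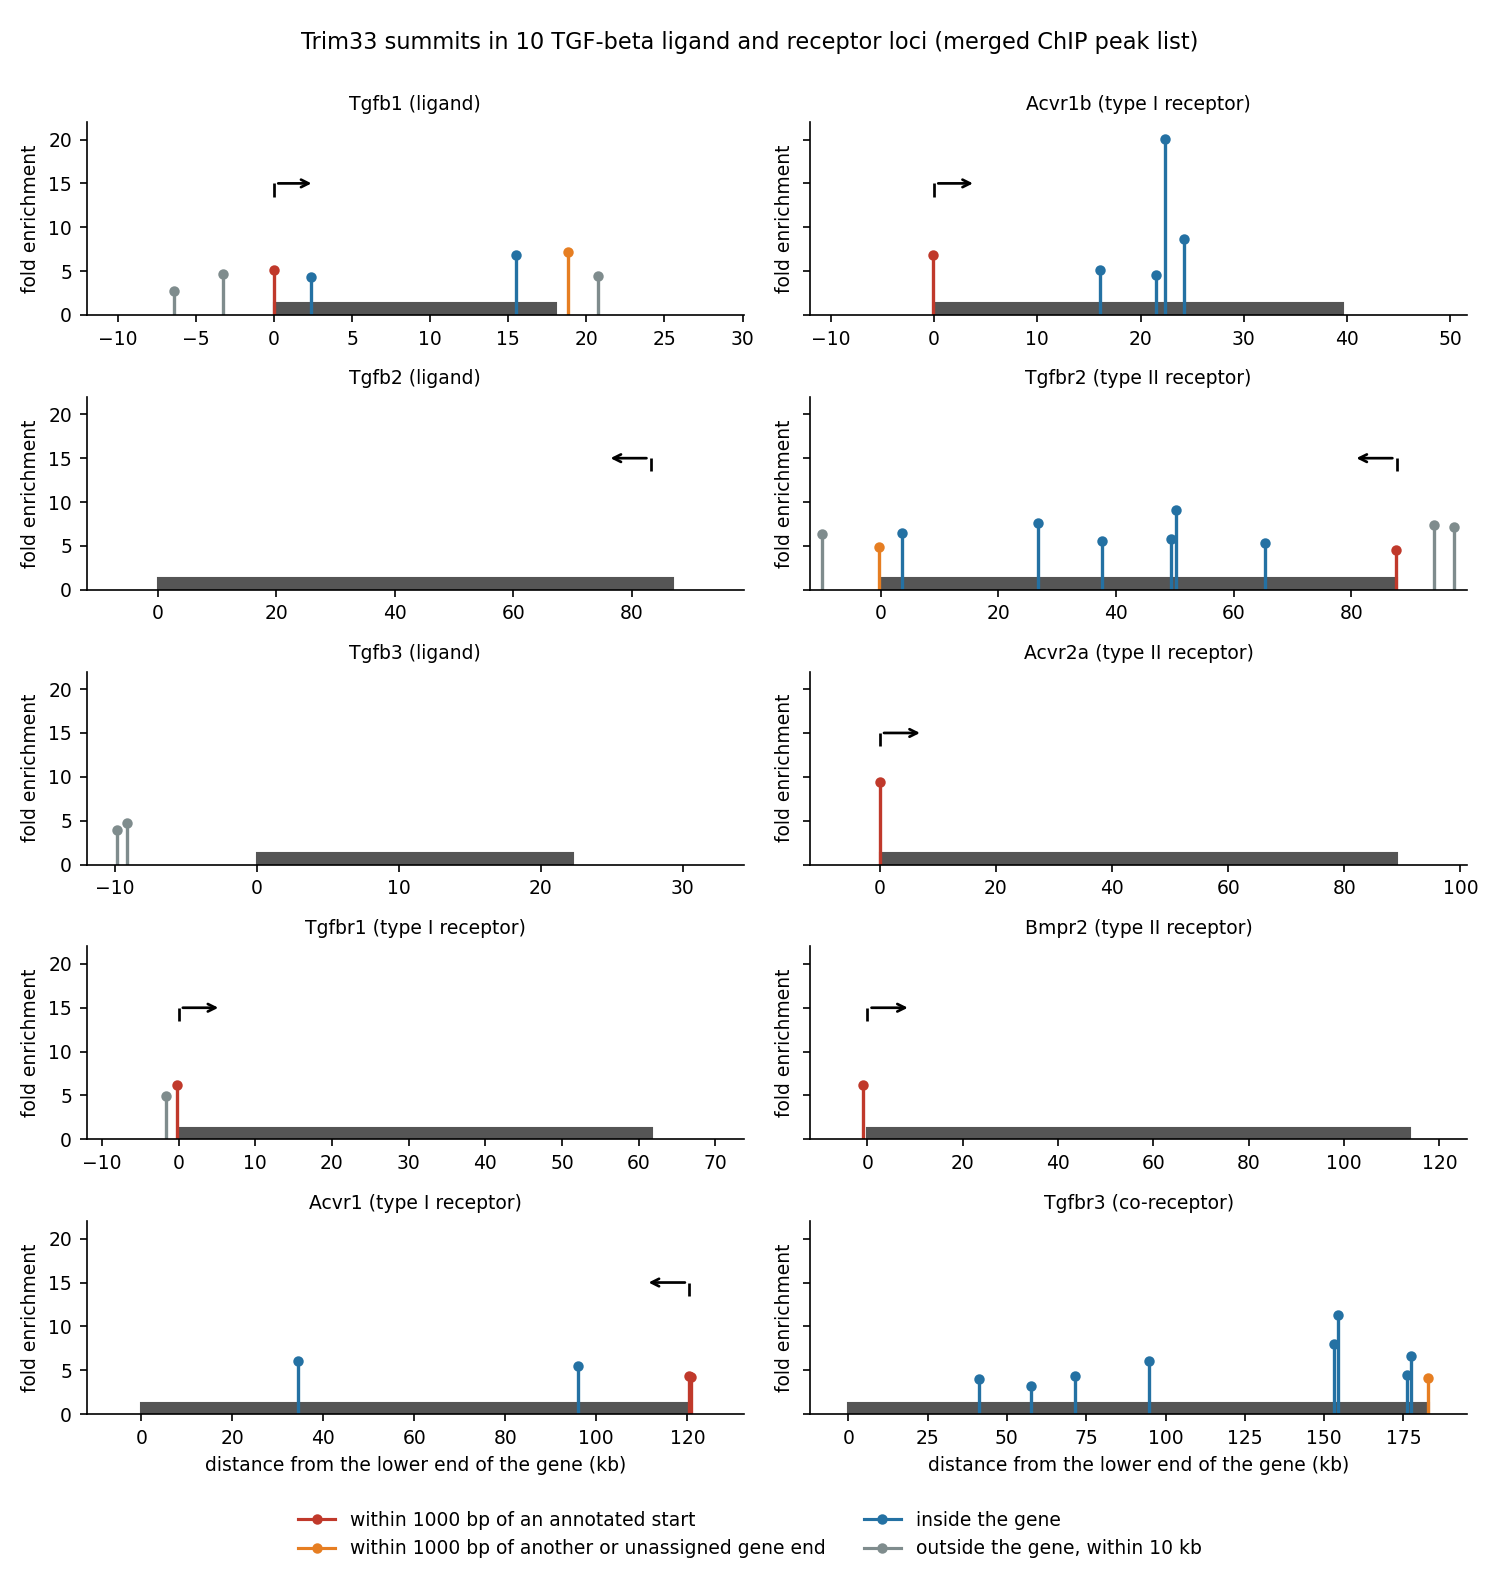
Trim33 summits in each of the 10 loci. The horizontal axis is the distance in kb from the lower end of the gene on the chromosome and differs in scale between panels, the grey bar is the gene body, the arrow is the first annotated start and its direction where known, and each stem is 1 summit with its fold enrichment on the vertical axis. Acvr2a and Bmpr2 had 1 summit each, at the start, while Tgfbr2 (11 summits) and Tgfbr3 (9 summits) had most of theirs inside the gene and Tgfb2 had none.

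The receptors that bind TGF-beta itself had unlike patterns. Tgfbr2, the type II receptor gene that is required for TGF-beta signalling, lies on the minus strand of chromosome 9 from 116087695 to 116175363 and had 11 summits, the most of the 10 genes. Of all protein-coding genes 0.366% had more, and the density was 10.2 per 100 kb. The start-site peak, with its summit 100 bp after the start, had 4.55-fold enrichment and was the lowest of the locus. A lncRNA gene, Gm40582, has an end 381 bp from that summit, and the peak cannot be told apart as belonging to the one or the other.

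Inside Tgfbr2, 6 summits lay at 22344 to 84064 bp after the start, with enrichments from 5.34-fold to 9.07-fold. The highest was at 116137694 to 116137989, 37552 bp after the start, and 15.4% of all peaks were higher. Its neighbour, of 5.78-fold, was 759 bp away. Upstream of the gene, summits 6362 and 9773 bp before the start had 7.35-fold and 7.14-fold enrichment. Past the 3′ end, a peak of 4.86-fold lay at 254 bp and 1 of 6.40-fold at 9967 bp, the latter nearer to Gadl1, a gene for an amino acid decarboxylase. In this locus 6 of the 11 enrichments were above the median of the list, and the start and the 3′ end had the lowest values.

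Tgfbr1, which encodes the type I receptor ALK5, lies on chromosome 4 from 47353222 to 47414926 and had 2 summits, both upstream of the start and none in the 61705 bp of the gene. Enrichment was 6.20-fold at 223 bp before the start and 4.97-fold at 1611 bp before it. By −log10 q their order was reversed, 10.8 against 11.3, so which is the stronger depends on the measure. One end of a lncRNA gene, Gm32435, lies between them at 47352314, and the summit nearer to Tgfbr1 is inside that gene. The second annotated start of Tgfbr1, inside the gene, had no summit within its 300 bases.

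Tgfbr3 encodes betaglycan, which presents ligands to the type II receptor, and lies on chromosome 5 from 107106567 to 107289629. It had 9 summits, all inside this long gene, or 4.43 per 100 kb, a density that 19.8% of genes exceeded. The highest peak, at 107260746 to 107260988, had 11.3-fold enrichment and ranked 1916 of 27050. Beside it, at 1139 bp, lay the second highest of the gene with 7.98-fold. The other 7 ran from 3.18-fold to 6.65-fold, and 1 of them, of 4.15-fold, was 263 bp inside the upper end of the gene. Tgfbr3 thus held both high and low peaks: 5 of its 9 were below the lower quartile of the list, 4.87.

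The activin and bone morphogenetic protein (BMP) receptors included the highest peak of the set. Acvr1b, the activin type I receptor ALK4, lies on chromosome 15 from 101174072 to 101213684 and had 5 summits. The peak at 101196148 to 101196750, inside the gene and 22338 bp after the start, had 20.1-fold enrichment and a −log10 q of 86.0. It ranked 151 of 27050 by fold and 117 by −log10 q, and 0.933% of the 11793 genes with a locus summit had a higher peak. On either side of it were summits of 4.55-fold, 818 bp before, and 8.68-fold, 1904 bp after, so that 3 summits lay within 2722 bp. The start-site peak had 6.88-fold enrichment at 143 bp before the start, and a peak of 5.18-fold lay 16061 bp after it.

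Acvr1 encodes the type I receptor ALK2, which passes on BMP signals. The gene lies on the minus strand of chromosome 2 from 58446438 to 58566828 and had 4 summits of low height. Those at the start, 33 bp after and 351 bp before it, had 4.31-fold and 4.28-fold enrichment. The former was also inside Upp2, a uridine phosphorylase gene that overlaps the start of Acvr1, and the latter was inside Upp2 alone. Inside Acvr1, enrichment was 5.53-fold at 24496 bp and 6.00-fold at 85913 bp after the start.

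Acvr2a and Bmpr2, type II receptors for activins and for BMPs, had 1 summit each in loci of long genes, 0.916 and 0.747 per 100 kb. About 51.2% and 52.1% of protein-coding genes had a higher density. The Acvr2a peak, on chromosome 2 from 48813697 to 48814413 with its summit 34 bp before the start, had 9.46-fold enrichment, the highest start-site value of the set. Its width was 717 bp, which 1.23% of all peaks exceeded. The Bmpr2 peak, on chromosome 1 from 59763186 to 59763570, had 6.22-fold enrichment at 820 bp before the start, which was the farthest from its start of the start-site summits.

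**Figure D2:**
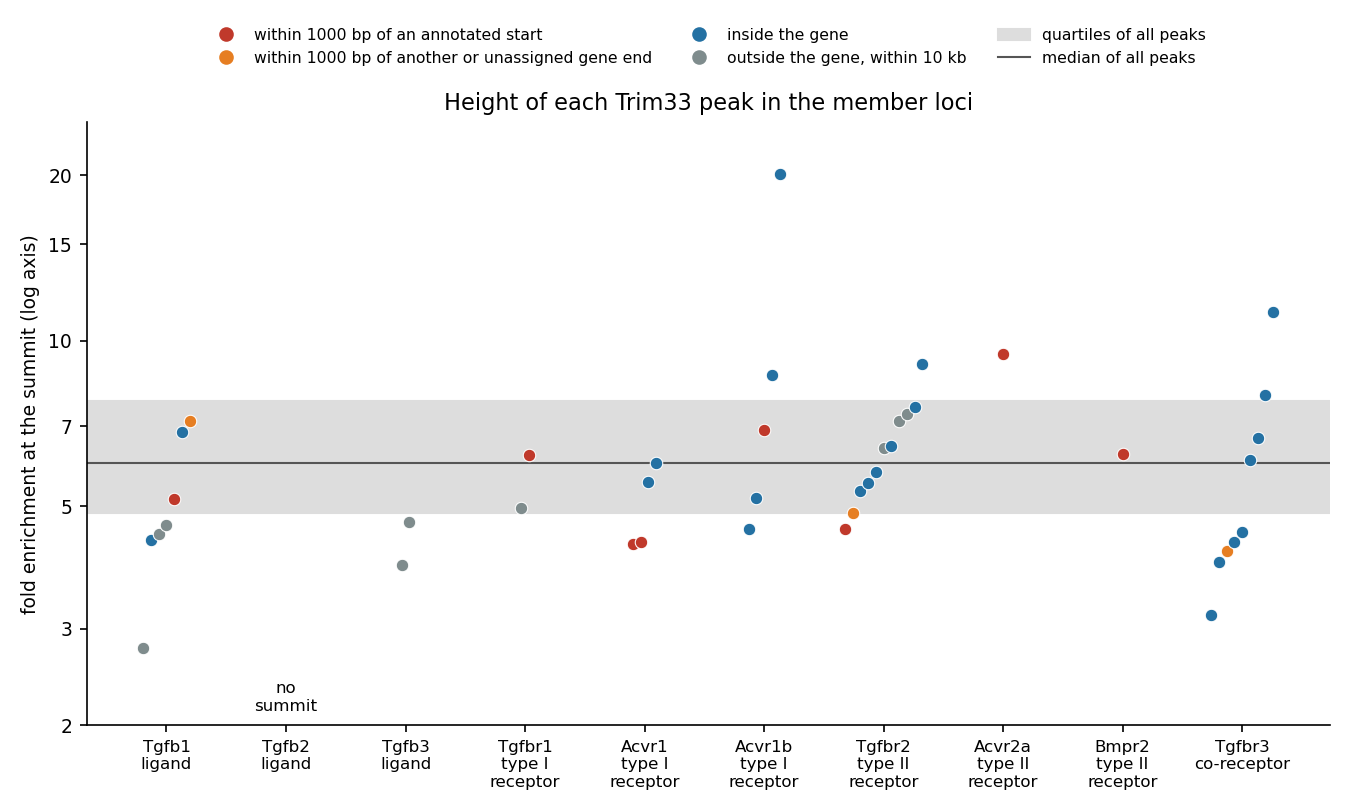
Fold enrichment of each peak in the loci, on a log axis, by gene and coloured by position. The grey band spans the quartiles of all 27050 peaks (4.87 to 7.76) and the line is their median (6.00). Of the 42 peaks 6 lie above the band, at Acvr1b, Tgfbr2, Acvr2a and Tgfbr3, and 16 lie below it.

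By position, 8 summits at the starts of 7 genes had enrichments from 4.28-fold to 9.46-fold with a median of 5.69, beside 5.77 for the 6556 peaks of the list within 1000 bp of an annotated start of a protein-coding gene. The start-site peaks were wider than the other member peaks, with a median of 370 bp against 232 bp for the 22 inside genes. In the whole list these medians were 257 bp near starts and 220 bp elsewhere. The 22 peaks inside 5 of the genes had a median of 5.89-fold and the 9 outside a median of 4.69-fold. Ordered by the start-site value, Acvr2a was followed by Acvr1b, Bmpr2, Tgfbr1, Tgfb1, Tgfbr2 and Acvr1. Over all 42 peaks the median was 5.52-fold, below the 6.00 of the list, and 6 of 42 (14.3%) reached its upper quartile. Per peak, 2 of 42 (4.76%) were of 10-fold or more against 11.1% of all peaks, although most of the genes were occupied. Per gene, such a peak was present at 2 of the 10 genes, against 10.1% of all protein-coding genes and 13.4% of those of like length. With 10 genes that count is too small to give a direction. Both counts rest on the same 2 peaks, and Tgfbr2, Tgfbr3 and Tgfb1 gave 11, 9 and 7 of the 42.

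By role, the 3 type II receptor genes held 13 summits with a median of 6.40-fold, the 3 type I receptor genes 11 with a median of 5.53-fold, the ligand genes 9 with a median of 4.62-fold and Tgfbr3 9 with a median of 4.49-fold. Tgfbr2 alone gave 11 of the 13 and Tgfb1 7 of the 9, so these medians describe single genes more than classes. In 6 of the 42 cases another protein-coding gene had an end nearer to the summit than the member did, and these genes were B9d2, Ttll5, Upp2 and Gadl1.

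**Figure D3:**
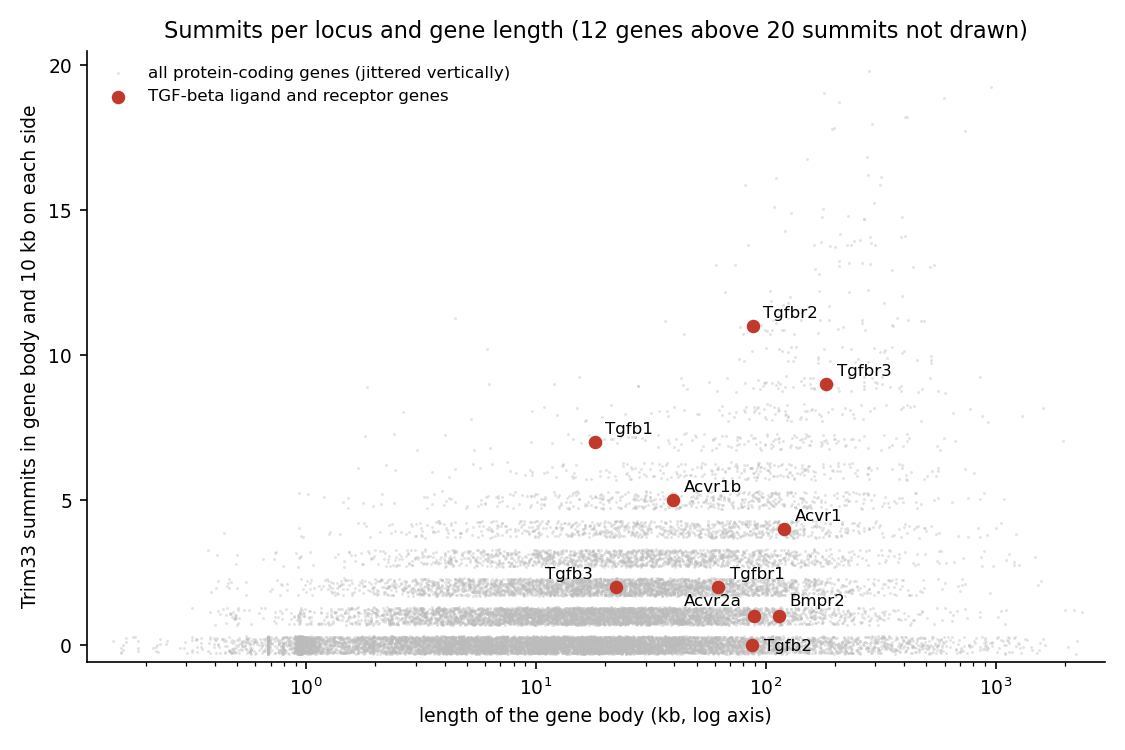
Number of summits in the locus against the length of the gene body on a log axis, for all protein-coding genes in grey and the 10 ligand and receptor genes in red. The 12 genes with more than 20 summits are not drawn. Tgfb1 has 7 summits at 18076 bp, whereas Acvr2a, Bmpr2 and Tgfb2 have 1, 1 and 0 at 86911 bp or more.

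The other genes of the pathway were taken in 6 groups, 46 genes in all, of which 33 (71.7%) had a locus summit against 53.9% of all protein-coding genes, and 20 (43.5%) a gene-end summit against 33.4%. The counts of each group can be read against the same shares, which are over genes of all lengths. Shares at like length were not taken for the 46 genes. Their lengths ran from 1922 bp, at a gene with no summit, to 387033 bp, at a gene with 1 summit. A gene of 332451 bp had none. Overlapping loci share summits, and for the 46 genes summits nearer to an end of another gene were not set apart. Of the other ligands of the superfamily, 3 of 9 had a locus summit. These were Gdf11 and the activin and inhibin subunit genes Inha (14.3-fold) and Inhba (10.2-fold), while Inhbb, also a subunit gene, and Bmp2 were among the 6 with none. The 14.3-fold peak was also the highest in the overlapping locus of a neighbour of Inha, and Inha had no summit within 1000 bp of either end. Of the other receptors 3 of 6 had a locus summit, with 12.9-fold at the BMP type I receptor gene Bmpr1a and 6.82-fold at Acvrl1, which encodes ALK1 of endothelial cells. Acvr1c and Acvr2b, both receptors of activin-like ligands, had none.

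Of the genes for latency, activation and co-receptors, 10 of 10 had a locus summit and 3 a gene-end summit. The highest were at Nrros (9.34-fold), whose product tethers latent TGF-beta in myeloid cells, and Furin (8.85-fold), the protease that cleaves the TGF-beta precursor. Of the antagonists 2 of 6 were occupied, the pseudoreceptor gene Bambi at 9.97-fold and Fstl3 at 5.43-fold, and Fst and Nog had none. All 8 SMAD genes and all 7 genes of the SKI family, SMURFs and other feedback genes had a locus summit, with up to 13.3-fold at Smad4 and 16.3-fold at Skil. The 20.1-fold peak of Acvr1b was higher than any peak in the loci of these 46 genes, and 9 of the 46 reached 10-fold or more against 2 of the 10 ligand and receptor genes and 10.1% of all protein-coding genes.

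**Figure D4:**
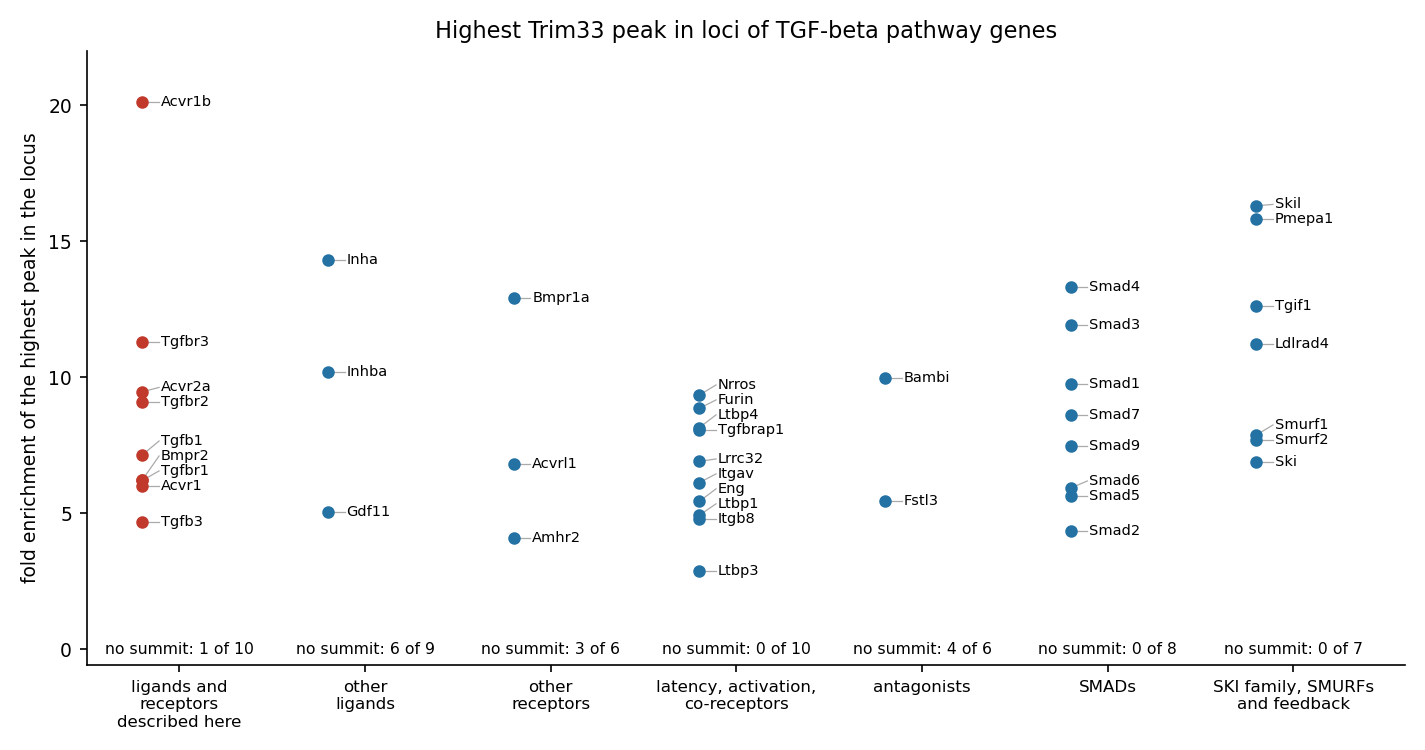
Fold enrichment of the highest peak in the locus of each occupied gene, for the 10 ligand and receptor genes in red and 46 other genes of the pathway in blue, in groups along the horizontal axis, with the number of genes without a summit below. Acvr1b is highest at 20.1, and all of the unoccupied genes are ligands, receptors or antagonists.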

How the data were processed

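Trim33 ChIP-seq and input DNA libraries of cultured Th17 cells were processed by the authors. The submitters' processing notes name the build mm10, MACS2 (version 2.1.1.20160309), Bowtie (1.2.1.1) and Trim Galore (0.3.7). Settings, threshold and control: not given in the sources used here. The deposited peak list gives fold enrichment (a ratio of the signal at the summit to background), −log10 of the p-value and −log10 of the q-value, in the column layout that MACS2 writes. The deposited score repeats the −log10 q, times 10 and without decimals, and was not used. Calling on merged libraries gives no value per library.

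Summits were joined to RefSeq protein-coding genes of GRCm38.p6, the same assembly, with Python 3.11.15, pandas 2.3.3 and numpy 2.4.6. All 10 genes matched the gene table and 8 the promoter table. A locus adds 10 kb to either end of the gene body. Chance tests were not run, and counts of members and pathway genes are set beside shares over all protein-coding genes. The rule names all 10 members, genes with a nearer end, and in each pathway group up to 2 occupied genes with the highest fold and up to 2 without a summit, in list order. The members and lists were chosen with earlier results of these data known. On simulated data, the counts were right for 500 of 500 genes. The alternatives were stricter peak sets, other flanks and windows, peaks overlapping by any base, and summits with the gene's own end nearest. Genes of like length as background were added after the data were seen.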

Additional observations from a re-analysis of the deposited data

How the results depend on the processing

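Of the 10 genes, the number with a locus summit was 9, and 5 with the gene body alone, which leaves out the start-site summits just upstream. The genes lost were Tgfbr1, Acvr2a, Bmpr2 and Tgfb3. It was 8 with peaks at or above the median fold, 6 with peaks at or above the median −log10 q and 10 with 50 kb on each side. With 5 kb on each side, or with the gene's own end nearest, it was 8, and Tgfb3 was the gene lost. The 42 summits became 19 in either stricter peak set, 25 with the gene body alone, 36 with 5 kb on each side or with the gene's own end nearest, and 63 with 50 kb. Their median fold of 5.52 was 7.14 in either stricter set, which keeps high peaks by construction, 5.53 with the gene body alone, 5.79 with 50 kb and 5.89 with the gene's own end nearest. Gene-end summits were found at 8 genes, at 5 with the stricter set by fold and at 4 by −log10 q. Start-site summits were found at 7 genes, and at 4 and 3 in these sets. With windows of 500 and 2500 bp the gene-end count was 7 and 8. The median over genes of the highest fold was 7.14, and 9.07 with the gene body alone and 8.59 with 50 kb. For 8 of the 9 occupied genes the highest peak by fold was also the highest by −log10 q, with Tgfbr1 the exception.

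The depth of the libraries is unknown, so no interval can be given and a locus without a summit is not shown to be unbound. No paired analysis was possible because replicates were merged before peaks were called.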

Other observations

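Beyond the 10 kb limit, the nearest further summits lay 10446 bp from Tgfb3 (9.34-fold), 16677 bp from Acvr1 (5.88-fold) and 21684 bp from Tgfbr2 (6.40-fold). For the other genes the distance was 26486 bp or more. The summit nearest to Acvr1b outside its locus, 28435 bp below it with 6.82-fold enrichment, had its nearest gene end at Acvrl1, another type I receptor gene and a neighbour of Acvr1b on chromosome 15. That nearest to Acvr2a, 46113 bp above it with 8.71-fold, had its nearest gene end at Mbd5. With 50 kb on each side, the highest fold moved to 9.34 at Tgfb3 and 8.12 at Tgfbr1 and became 5.79 at Tgfb2.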
